A study of Mus musculus with 9 samples.

Results

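The genes described here encode the proteins of the cytosolic ribosome, and their mRNAs were measured by bulk RNA-seq in 9 samples of pre-cDCs, the committed precursors of conventional dendritic cells. Members were taken by symbol: protein-coding genes of the count table named Rpl, Rps or Rplp with a digit, plus Rpsa, without the kinases named Rps6k. The rule found 92 of 51912 genes. Of these, 43 encode proteins of the large (60S) subunit, 3 the stalk of that subunit (Rplp0, Rplp1, Rplp2) and 31 proteins of the small (40S) subunit. Another 9 are minor paralogs or look-alikes, among them Rps19bp1, which encodes a nuclear protein that binds a ribosomal protein, and 6 have symbols of the pseudogene type although they are annotated as coding. The symbol rule leaves out genes with other symbols, such as Fau and Rack1, which also encode proteins of the cytosolic ribosome. Counts above 0 were found in any sample for 89 members, and 87 passed the filter on low counts over all samples.

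A cell builds each ribosome from one copy of nearly every ribosomal protein, and the genes are therefore transcribed at high and coordinated rates. Their mRNAs start with a terminal oligopyrimidine (TOP) tract, through which mTOR signaling adjusts their translation, and their transcription follows growth signals such as Myc. Progenitors that divide in BM and the more mature cells of peripheral tissues can thus differ in their demand for ribosomes. A change in mRNA level says nothing here of ribosome number or translation, neither of which was measured.

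The samples came from mixed BM chimeras, in which recipients of the BL/6 CD45.1/2 background were lethally irradiated and given a mixture of 1 to 1 of WT BM (CD45.1, on BL/6) and BM of mice homozygous for Clec9a Cre (Clec9a Cre/Cre, CD45.2), here called DNGR-1 KO. The cells were taken 16 weeks later. Both genotypes therefore developed in the same irradiated hosts without further treatment, and the DNGR-1 KO cells carry a Cre insertion in the Clec9a gene, which encodes the dead-cell receptor DNGR-1. For WT samples the label fields disagree on the marker, CD45.1 or CD45.2. There were 3 WT and 3 DNGR-1 KO samples (below, KO) of BM pre-cDCs and 1 WT and 2 KO samples of spleen pre-cDCs, each sorted as 10000 to 20000 cells pooled from 2 mice. Splenic cDC1 samples were not analysed here. The 2 genotypes also differ in the strain of origin of the CD45 locus, so that the congenic interval and DNGR-1 loss cannot be told apart. Clec9a had at least 905 counts in every WT library and at most 1 in any KO library. Libraries of total RNA without rRNA held 17103832 to 23722311 counts, and 3 counts, taken as the limit of detection, correspond to 0.126 to 0.175 CPM. This limit covers counting error only. Libraries are named by genotype, tissue and the digit of their label.

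Several libraries stood apart in markers of other cells. The 7 T cell markers summed to 2.09 to 15.0 CPM in BM and 709 to 3278 CPM in spleen, and each of the 7 had counts in all 3 spleen libraries. The 5 erythroid markers summed to 82.8 to 535 CPM in BM and 5096 to 30506 CPM in spleen, almost entirely from the globins Hba-a1 and Hbb-bs, whereas Klf1 was at 0 to 5 counts in spleen. Conversely, the 8 neutrophil markers summed to 859 to 2794 CPM in BM and to at most 1.06 CPM in spleen. Most of the BM sum came from Mpo (13857 to 46964 counts), whereas Ly6g had 0 to 19 counts there. The 5 cycling markers summed to 1983 to 2591 CPM in BM and 29.4 to 95.8 CPM in spleen. The 6 NK cell markers summed to 63.3 to 151 CPM in BM and 753 to 1855 CPM in spleen, mostly from Nkg7 and Klrk1. Gzma and Prf1 had at most 2 counts in BM, and 129 to 3879 and 228 to 3613 in spleen. Ncr1 had 0 counts in WT spleen and 281 and 253 in KO spleen. Klrb1c had 0 counts in WT spleen and 266 and 0 in KO spleen. Summed markers of B cells (34.6 to 58.5 CPM), macrophages and monocytes (774 to 1959 CPM) and plasmacytoid DCs (428 to 946 CPM) overlapped between tissues. Most of the macrophage and monocyte sum came from Ly6c2, which overlapped, as did Fcgr1 and Mertk. In contrast, Adgre1 had 35 to 207 counts in BM and 1197 to 2086 in spleen, C1qa 9 to 47 and 74 to 2236, and C1qb 10 to 66 and 308 to 3068. The 10 markers of pre-cDCs and cDCs summed to 2131 to 5203 CPM, with counts of every marker in every library. Fewer cells of a type and less RNA per cell cannot be told apart in bulk samples.

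RefSeq promoter windows (GRCm38.p6, 250 bases before to 50 after the annotated start) were found for 66 of the 92 members. The windows were searched for an unbroken run of at least 8 C or T on the coding strand, from 40 bases before the start to its end. Such a run was present in 52 of the 66 members (78.8%) and in 9719 of 27025 genes with a window (36.0%). A run that covers the annotated start itself, the place of a TOP tract, was found in 17 members (25.8%) and in 4.59% of all genes. The motif ACTTCCG, read on either strand of the whole window and known as the core that ETS factors such as GABP bind, was present in 34.8% of members and 7.20% of all genes. For TATAAA the shares were 10.6% and 15.7%.

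The following 30-base windows, from 10 bases before the start to 20 from it, show how the start regions of the members described below differ, with runs of at least 8 pyrimidines in capitals. Rpl27a and Rpl15 have among the longest runs over the start and are shown for comparison with Rpl38 and Rps28, which were among the 5 members with the widest range over the BM libraries, with Rps27, Rps27rt and Rps7, which had the lowest p among members with higher values in spleen, and with Rps2 and Rpsa, whose spleen values lay below those of BM.
Rpl27a (chr7:109519185-109519214, plus strand): cgtgagCTCCTCCCTTTTCCCTTTCTgcca
Rpl15 (chr14:18270967-18270996, minus strand): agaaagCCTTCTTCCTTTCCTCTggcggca
Rpl38 (chr11:114668570-114668599, plus strand): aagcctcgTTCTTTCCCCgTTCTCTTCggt
Rps27 (chr3:90213629-90213658, minus strand): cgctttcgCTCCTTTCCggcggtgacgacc
Rps27rt (chr9:114982720-114982749, minus strand): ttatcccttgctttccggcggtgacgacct
Rps7 (chr12:28635934-28635963, minus strand): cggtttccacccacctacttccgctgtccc
Rps2 (chr17:24720053-24720082, plus strand): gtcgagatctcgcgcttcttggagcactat
Rpsa (chr9:120127756-120127785, plus strand): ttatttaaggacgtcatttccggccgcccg
Rps28 (chr17:33824543-33824572, minus strand): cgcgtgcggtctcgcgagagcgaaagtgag
The run spans the start in Rpl27a (20 bases), Rpl15 (17 bases), Rpl38 (10 bases) and Rps27 (9 bases). The Rps27 and Rps27rt windows share an unbroken stretch of 38 bases at their starts, Rps27rt being a copy of Rps27 elsewhere in the genome. No such run lies in the window of Rpsa, Rps28 or Rps27rt, and in Rps7 and Rps2 the longest run begins downstream of the printed bases. An annotated start need not be the start used in pre-cDCs, which was not measured.

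Members made up 3.64 to 7.44% of all counts of a library. Per kb of transcript, the highest mean levels over the 9 libraries were those of Rpl13 (2332 CPM per kb), Rpl32 (2214 CPM per kb), Rps6 (2026 CPM per kb), Rplp0 (2025 CPM per kb) and Rpl4 (1685 CPM per kb). Rps6 encodes the small subunit protein phosphorylated by S6 kinases, Rplp0 the base of the stalk that recruits elongation factors. At the other end were Rpl9-ps6 (33.9 CPM per kb), Rps12-ps3 (5.15 CPM per kb), Rpl3l (0.472 CPM per kb), Rpl36a-ps1 (0.102 CPM per kb) and Rpl39l (0.0165 CPM per kb, with counts in WT BM 1 alone). Rpl3l and Rpl39l are paralogs known from striated muscle and testis, respectively. The members Rpl10l, a testis paralog, Rpl36-ps4 and Rpl9-ps1 were at 0 counts in every library, which allows at most 0.126 to 0.175 CPM in each. RSEM, named in the submitters' processing notes, divides reads that fit several genes, and 89.0% of the members' nonzero counts were not whole numbers against 25.6% over all genes. Levels of members with near-identical copies are thus uncertain, and 9 members with counts had whole values in at least 8 libraries, among them Rpl22, Rps3, Rps21 and Rps27l.

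Ribosomal protein genes moved together from library to library, and 2 BM libraries stood out. WT BM 1 drew 7.44% of its counts from the members and KO BM 2 drew 3.64%. The other WT BM libraries were at 5.19 and 4.72%, the other KO BM libraries at 4.85 and 5.86%, WT spleen at 5.08%, and KO spleen at 5.63 and 5.98%. WT and KO libraries of BM thus overlapped, and the 3 spleen libraries lay within the range of BM. On the log2 CPM scale, each member was set against its own mean over the 6 BM libraries. In WT BM 1 all 87 members were above that mean, with a median of 0.66, and in KO BM 2 none was, with a median of −0.52. The other BM libraries had medians of −0.09 (WT BM 2), −0.15 (WT BM 3), −0.13 (KO BM 1) and 0.24 (KO BM 3, 79 of 87 above). In spleen the medians were 0.06 (WT), 0.28 (KO 1) and 0.12 (KO 2), with 47, 70 and 52 members above the BM mean.

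**Figure D1:**
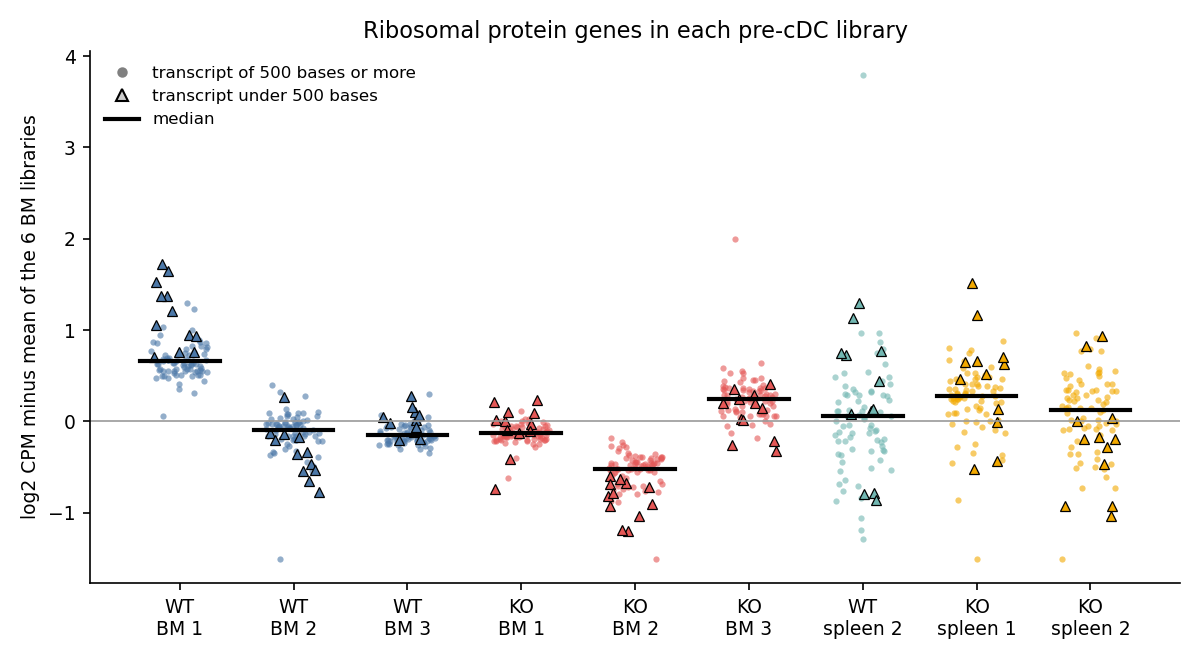
Each point is 1 of 87 ribosomal protein genes; the vertical axis gives its log2 CPM in a library minus its mean over the 6 BM libraries, black bars are medians, and triangles mark transcripts under 500 bases. All genes of WT BM 1 lie above 0 and all of KO BM 2 below it, and the points far from the rest in KO BM 3 and WT spleen 2 (1.99 and 3.79) are Rpl3l.

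The shift was common to both subunits. In WT BM 1 the median was 0.63 for small subunit and 0.64 for large subunit members, and in KO BM 2 it was −0.47 and −0.53. Within WT BM the median member had an SD of 0.45 over the 3 libraries, which became 0.10 once each library's median was taken off, and within KO BM the SD went from 0.41 to 0.14. The members that followed the library medians most closely over the 9 libraries were Rpl9 (residual SD 0.07), a large subunit protein, and Rps27a (0.07), which is made as a fusion with ubiquitin. Rpl9 had 1178, 725 and 661 CPM in the WT BM libraries, 661, 544 and 979 CPM in the KO BM libraries, 820 CPM in WT spleen, and 985 and 847 CPM in KO spleen. Its highest and lowest values thus fell in WT BM 1 and KO BM 2, as for the members at large.

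Members with short transcripts moved more than those with long ones. The 12 members with a principal transcript under 500 bases had a median of 1.13 in WT BM 1 and −0.80 in KO BM 2, against 0.58 and −0.46 for the 35 members of at least 900 bases. Rps29 (ENSMUSG00000034892, chr12:69157722-69159186, 390 bases), a small zinc-binding protein of the small subunit, had 547 CPM in WT BM 1 but 96.9 and 173 CPM in the other WT BM libraries. It was at 175, 95.9 and 131 CPM in KO BM, 278 CPM in WT spleen, and 269 and 136 CPM in KO spleen. Rps28 (392 bases), also of the small subunit, had 346, 76.7 and 134 CPM in WT BM, and 130, 63.0 and 104 CPM in KO BM. Rpl38 (457 bases), a large subunit protein known for its part in selective translation of Hox mRNAs, had 278, 64.2 and 92.0 CPM in WT BM, and 104, 38.5 and 74.0 CPM in KO BM. For these 3 genes WT BM 1 lay far above all other BM libraries, while the remaining WT values overlapped KO. Rps2 (1094 bases) departed in the other direction and was close to its BM mean in WT BM 1 (0.06).

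Over the 87 members, Spearman's correlation between transcript length and deviation, a description over genes that share libraries, was −0.48 in WT BM 1, 0.33 in WT BM 2, 0.45 in KO BM 2, and between −0.30 and 0.27 in the other 6 libraries. Genes outside the list also followed length in WT BM 1. There, the median deviation of other genes was 0.52 for transcripts under 500 bases, 0.42 from 500 to 900 bases, 0.06 above that, and −0.34 from 4000 bases on. In KO BM 2 the first 2 of these classes had medians of −0.16 and −0.20. They were nearly as low in KO BM 1 (−0.15 and −0.14), where the median of the members was −0.13. Members of at least 900 bases had a median of 0.58 in WT BM 1, against 0.06 for other genes of 900 to 4000 bases. These 2 sets were not matched for length within their bounds. The part of transcript length in the shift of the members was not tested.

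**Figure D2:**
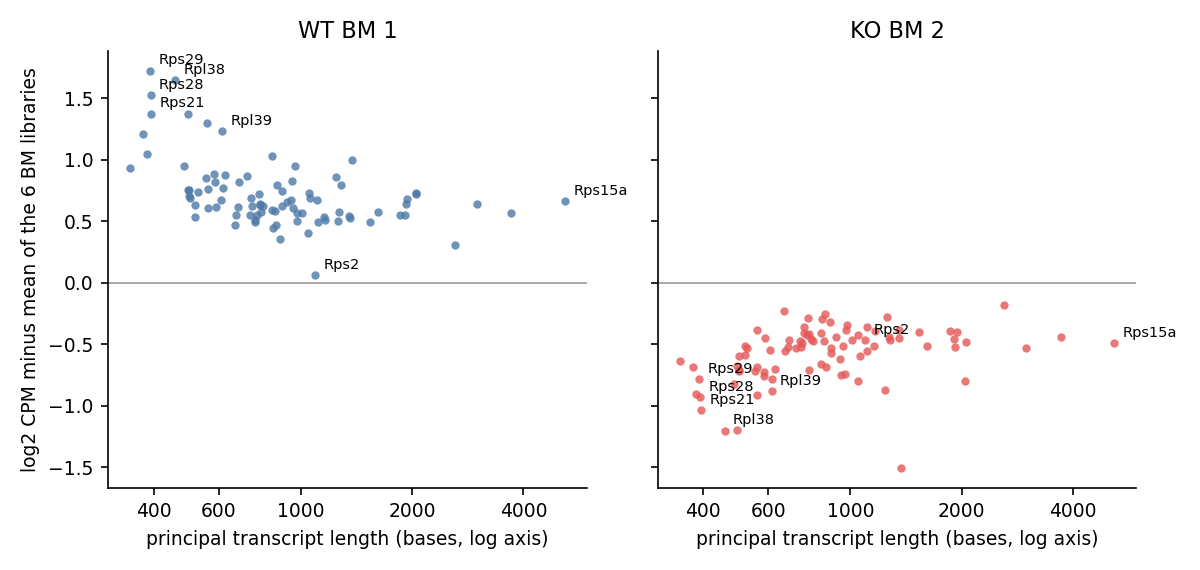
Log2 CPM minus the mean of the 6 BM libraries (vertical axis) against the length of the principal transcript in bases (log axis) for 87 ribosomal protein genes, in the 2 libraries with the largest shifts. Rps29, Rpl38 and Rps28, with transcripts under 500 bases, lie farthest from 0 in WT BM 1, and Rps2 lies closest to it.

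Members were also split by whether the searched part of the window held a pyrimidine run. Such a run need not cover the start, and the starts used were not measured. The split therefore does not separate TOP mRNAs from others. In WT BM 1 the 51 kept members with a run had a median deviation of 0.67 and the 13 without had 0.57, and in KO BM 2 the medians were −0.53 and −0.40. In the other 7 libraries the medians of these 2 sets lay between −0.18 and 0.31.

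Other genes of ribosome production were compared with the members by library. The 78 genes of the mitochondrial ribosome had a median of 0.55 in WT BM 1 and −0.41 in KO BM 2, and all 78 were above their BM mean in WT BM 1. The 48 assembly factors found of 49 listed, nucleolar proteins and export factors that put ribosomal subunits together, had 0.45 and −0.53. The 19 genes of RNA polymerase I, which transcribes rRNA, had 0.44 and −0.29, and 20 other translation genes with TOP mRNAs, such as elongation factors, had 0.40 and −0.25. The 15 genes that control TOP mRNAs, such as Mtor, Larp1 and Myc, had −0.15 and 0.02, and all kept genes had 0 and 0.02. In KO BM 3 the lists parted: ribosomal protein genes were at 0.24, and assembly factors at −0.26.

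**Figure D3:**
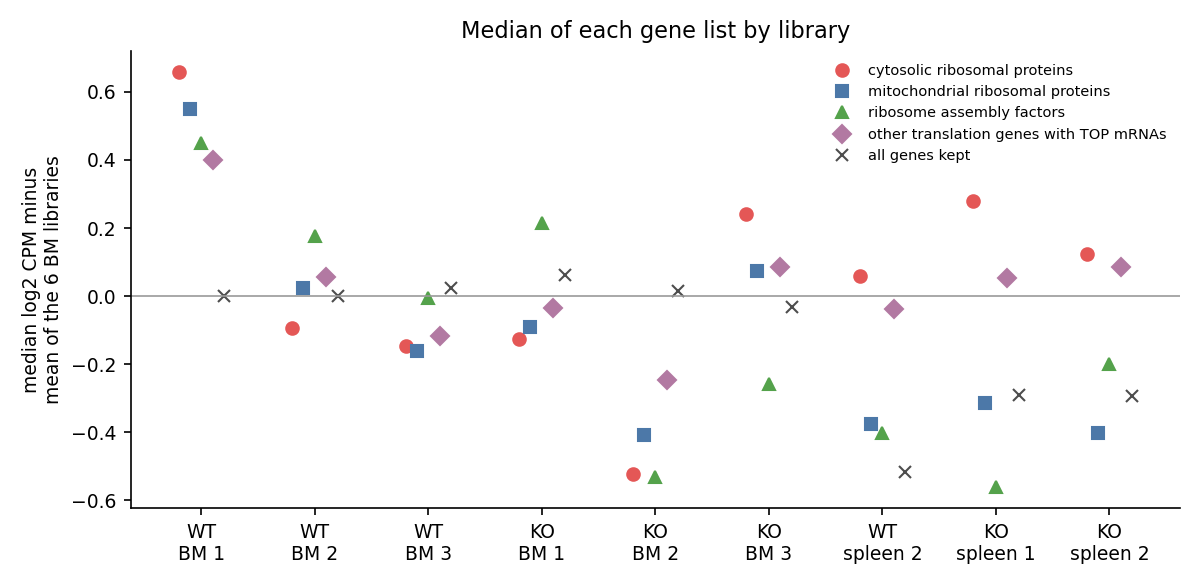
Median log2 CPM minus the mean of the 6 BM libraries (vertical axis) for 5 gene lists in each of the 9 libraries. In WT BM 1 the 4 translation lists lie between 0.40 and 0.66 with all genes at 0, in KO BM 2 they lie between −0.53 and −0.25, and in spleen the cytosolic ribosomal proteins lie above the mitochondrial ones.

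Some measures of cell content were at their extremes in WT BM 1 and KO BM 2, but did not follow the shift through the other BM libraries. The summed pre-cDC and cDC markers were lowest in WT BM 1 (2863 CPM) and highest in KO BM 2 (5203 CPM), and lay between 3208 and 4693 CPM in the other BM libraries. Most of this sum came from 1 gene, Irf8, with 35062 counts in WT BM 1 and 70158 in KO BM 2. The erythroid markers were highest in WT BM 1 (535 CPM) and lowest in KO BM 2 (82.8 CPM), with 213 to 329 CPM in the others, and the gene Klf1 had 5625 and 233 counts in these 2 libraries. The globins of that list did not follow this order. Hbb-bs had 1901 counts in KO BM 3, 1212 in WT BM 1, 745 in KO BM 2 and 41 in WT BM 2. Hba-a1 was also lowest in WT BM 2 (226 counts, against 652 in KO BM 2). The share of counts from mitochondrially encoded genes was 1.64% in WT BM 1 and 0.747 to 1.28% in the other BM libraries, KO BM 2 being at 0.856%. The 2 libraries had 16216 and 16526 genes detected, within the range of 14862 to 18122 in BM. In KO BM 3, where members were also raised (median 0.24), the pre-cDC and cDC markers were at 4296 CPM. They were at 3208 CPM in WT BM 2 and 3390 CPM in KO BM 1, where members were lower. Klf1 had 833 counts in KO BM 3, against 4153 in WT BM 2 and 3835 in KO BM 1. The mitochondrial share of KO BM 3 was 0.779%. The part of these measures in the shift was not tested.

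The comparison of KO and WT BM pre-cDCs asks whether loss of DNGR-1 alters the precursors before they leave BM. No ribosomal protein gene passed the test. In edgeR's quasi-likelihood test with Benjamini-Hochberg adjustment over 13016 genes, 0 of 86 tested members were called in either direction, against 0.0154% of all genes called higher and 0.0154% called lower. The lowest adjusted p of a member was 0.861. Unadjusted, 2 members had p under 0.05 in edgeR, 4 in DESeq2 and 1 in limma-voom, each of which called 0 members after adjustment. In edgeR these were 2.33% of members, against 3.83% of all genes. All 86 log2 fold changes were negative, with a median of −0.30, while the median of all genes was near 0 (−0.0045).

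The common sign depended on which libraries entered. Without WT BM 1 the median of the 86 members was 0.04, with 37 below and 49 above 0. Without KO BM 2 it was −0.13, with 66 below and 20 above 0, and without KO BM 1 5 members were above 0. Without WT BM 2, WT BM 3 or KO BM 3 all values stayed negative, with medians down to −0.51 (without KO BM 3). The libraries with the same number gave −0.80 for number 1 (0 of 87 members higher in KO), −0.42 for number 2 (1 of 87 higher), and 0.38 for number 3 (80 of 87 higher). KO libraries were all below the WT libraries for 2 of 87 members, against 4.37% of all genes, and all above for 0, against 4.75%. With offsets for transcript length and GC content the median was −0.05.

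**Figure D4:**
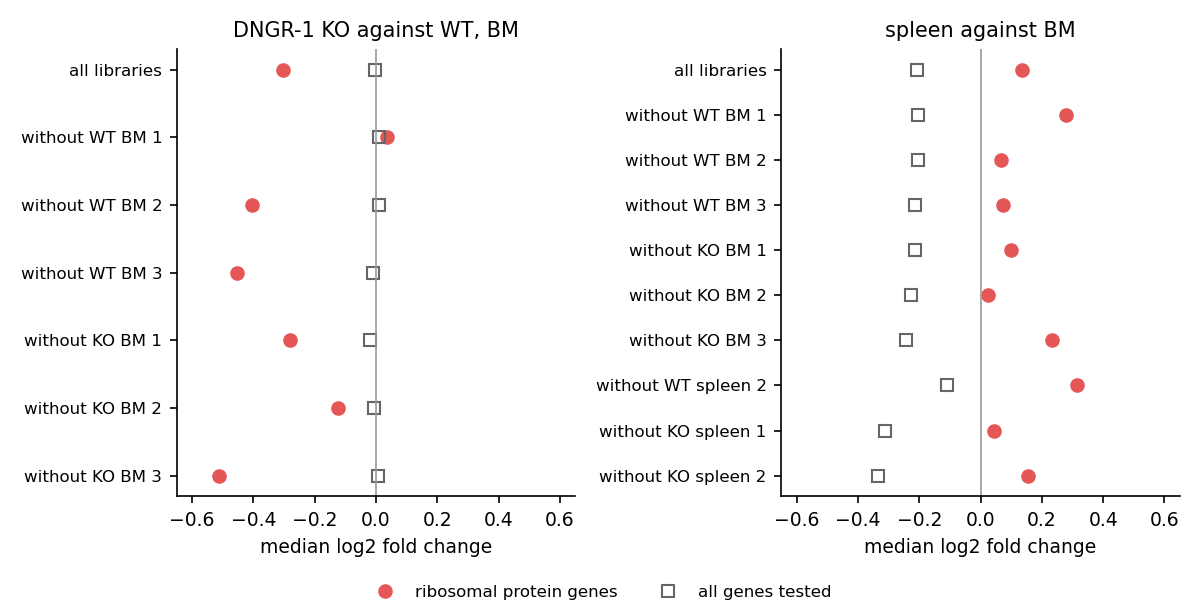
Median log2 fold change (horizontal axis) of the ribosomal protein genes (circles) and of all genes tested (squares), with all libraries and with each library left out, for KO against WT in BM (left) and spleen against BM (right). On the left the circle moves from −0.30 to 0.04 without WT BM 1, and on the right all circles lie between 0.02 and 0.32, to the right of the squares.

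The 2 members with an unadjusted p under 0.05 were Rpl5 and Rps12-ps3. Rpl5, which with Rpl11 and 5S rRNA binds Mdm2 and so links ribosome production to p53, had 365, 275 and 209 CPM in WT BM and 198, 126 and 214 CPM in KO BM. The groups overlapped by 1 library, KO BM 3, and the log2 fold change was −0.67 ± 0.29 (SE, edgeR, adjusted p = 0.861). Its partner Rpl11 had 461 ± 156 CPM in WT and 417 ± 118 CPM in KO (SD, n = 3 each). Rps12-ps3, at 6.03, 2.75 and 2.76 CPM in WT and 1.31, 0.932 and 2.30 CPM in KO, is one of the 2 members without overlap. The other is Rpl30, a large subunit protein, with 389, 230 and 233 CPM in WT and 225, 156 and 212 CPM in KO (log2 fold change −0.53 ± 0.27, edgeR adjusted p = 0.861).

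The members with the largest differences between genotypes all had transcripts under 500 bases. Rps12-ps3 had a log2 fold change of −1.35 ± 0.60, Rps29 of −1.03 ± 0.54, Rpl38 of −1.01 ± 0.54 and Rps28 of −0.92 ± 0.50 (edgeR, adjusted p = 0.861 each). Among members of known role, Rps6 (−0.03 ± 0.27), Rplp0 (−0.14 ± 0.27), Rpl10 (−0.16 ± 0.25), a late-joining protein at the site of peptide transfer, and Rps19 (−0.25 ± 0.30), known from Diamond-Blackfan anemia, had values smaller than their standard errors. No gene of the 5 related lists passed the test in BM either. Their medians were −0.42 for assembly factors, −0.33 for RNA polymerase I genes, −0.30 for mitochondrial ribosomal proteins, −0.17 for other TOP mRNAs and −0.13 for genes that control TOP mRNAs. The genes with the lowest unadjusted p included Utp18, Rrs1, Mrpl2, Mrpl38, Polr2h and Snhg1, all with negative values between −0.60 and −1.06.

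Between tissues, the main test called members less often than genes at large. Unadjusted, 9.20% of members had p under 0.05 in edgeR, against 32.6% of all genes. With all 9 samples and genotype as a covariate, 2 of 87 members were higher in spleen (Rps7, Rps27) and 1 was lower (Rps2), against 5.98% of 15813 genes called higher and 9.7% called lower. The median of the members was 0.13, that of all genes was −0.21, and 57 members were above 0. When a library was left out the median of the members stayed positive, from 0.02 (without KO BM 2), 0.04 (without KO spleen 1) and 0.07 (without WT BM 2 or WT BM 3) to 0.23 (without KO BM 3), 0.28 (without WT BM 1) and 0.32 (without WT spleen 2), but among the members with whole counts it was −0.25. Every spleen library was above every BM library for 1 member, Rps7, against 7.78% of all genes. Every spleen library was below every BM library for 3 members, Rps2, Rpsa and Rps19bp1, against 15.8% of all genes.

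Rps7 (ENSMUSG00000061477, chr12:28630854-28635953), a small subunit protein that also binds Mdm2, had 1108, 698 and 634 CPM in WT BM and 639, 509 and 937 CPM in KO BM. It had 1335 CPM in WT spleen, and 1342 and 1424 CPM in KO spleen. The log2 fold change was 0.89 ± 0.24 (SE, edgeR, adjusted p = 0.0368). All 3 spleen libraries lay above the highest BM library, WT BM 1, which was the one raised for members in general.

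Rps27 (ENSMUSG00000090733, chr3:90212522-90213651), a zinc-finger protein of the small subunit, had 730, 265 and 409 CPM in WT BM and 354, 246 and 452 CPM in KO BM. In spleen it had 841, 855 and 729 CPM, the last of these just under WT BM 1. Its log2 fold change was 1.05 ± 0.31 (edgeR, adjusted p = 0.0482). Its copy Rps27rt had 47.9, 17.9 and 19.7 CPM in WT BM, 15.4, 12.8 and 22.9 CPM in KO BM, and 50.9, 58.9 and 36.6 CPM in spleen (1.25 ± 0.41, edgeR adjusted p = 0.067). Reads of the pair can be divided between them, since their counts were not whole. The paralog Rps27l, which encodes a nearly identical protein and is known as a p53 target, had the opposite sign. It had 307, 167 and 164 CPM in WT BM, 177, 125 and 241 CPM in KO BM, and 104, 139 and 92.1 CPM in spleen (−0.79 ± 0.31, edgeR adjusted p = 0.111). Rps27l had whole counts in all libraries.

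Rps2 (ENSMUSG00000044533, chr17:24718116-24721929), a small subunit protein near the mRNA entry channel, had 943, 1187 and 908 CPM in WT BM and 870, 655 and 938 CPM in KO BM. It had 560 CPM in WT spleen, and 499 and 593 CPM in KO spleen, all under the lowest BM library. The log2 fold change was −0.69 ± 0.19 (edgeR, adjusted p = 0.0369). Rpsa, the laminin receptor precursor of the small subunit, had 1767, 1135 and 976 CPM in WT BM and 965, 839 and 1148 CPM in KO BM. In spleen it had 485, 802 and 831 CPM without overlap with BM, but did not pass the test (−0.67 ± 0.29, edgeR adjusted p = 0.149). Rps12 had −0.59 ± 0.34.

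On the large subunit the lowest p belonged to a paralog, Rpl22l1, with 279.5, 143 and 140 CPM in WT BM, 139, 94.0 and 186 CPM in KO BM, and 302, 266 and 224 CPM in spleen (0.77 ± 0.28, edgeR adjusted p = 0.0968). Rpl22, its RNA-binding parent that is required for T cell development, had 95.4 to 220 CPM in BM and 142 to 187 CPM in spleen (0.27 ± 0.26). Rpl5 had 0.63 ± 0.29 (edgeR adjusted p = 0.162). Of the stalk proteins, Rplp0 (−0.08 ± 0.24) and Rplp2 (−0.02 ± 0.32) were near 0, and Rplp1 was at −0.36 ± 0.34. Of the other paralogs, Rpl36al was at 0.31 ± 0.26 and Rpl7l1 at 0.03 ± 0.16.

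**Figure D5:**
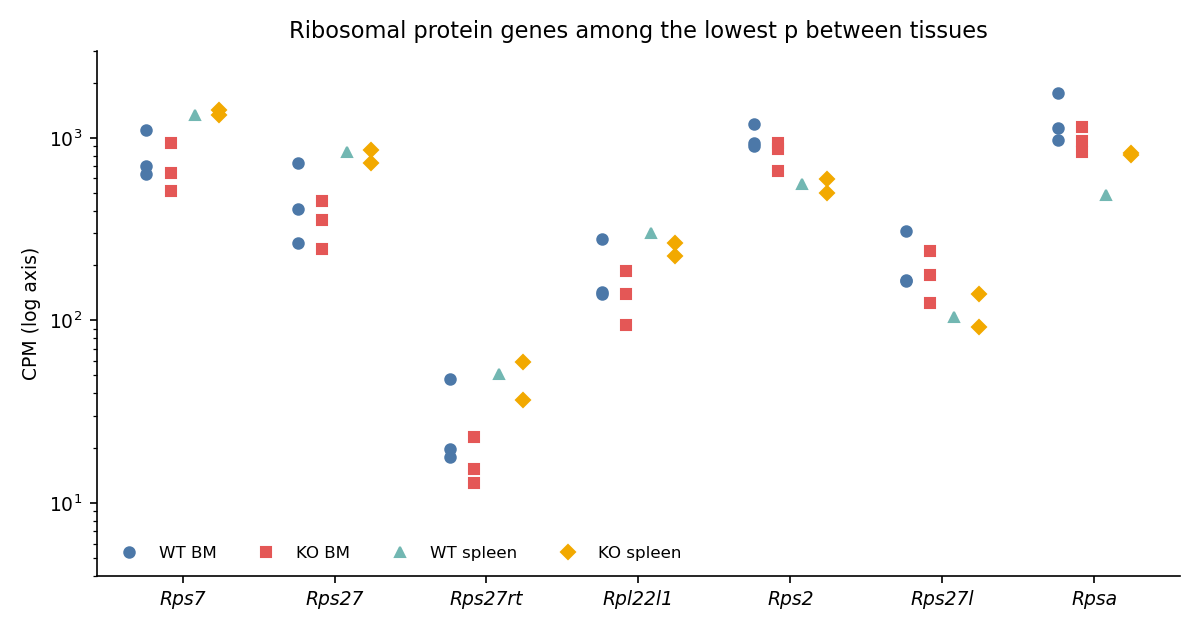
CPM (log axis) in each library of 7 members among those with the lowest p between tissues, the first 4 with positive and the last 3 with negative log2 fold changes; circles and squares are WT and KO BM, triangles and diamonds WT and KO spleen. For Rps7 all 3 spleen points lie above the BM points, and for Rps2 and Rpsa all lie below.

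The 3 calls depended on which libraries entered. When a library was left out, Rps7 had an adjusted p of 0.0158 to 0.0931 and stayed past the threshold only without WT BM 1 or KO BM 3. Rps27 stayed only without WT BM 1 (0.0120 to 0.107 over all), and Rps2 only without WT BM 1, KO BM 2 or KO spleen 2 (0.0282 to 0.145). All 3 kept their direction in each of these fits. With length and GC offsets 26 members were called higher and 2 lower (29.9% and 2.30% of members), against 14.6% and 8.26% of all genes, and the medians were 0.43 for members and 0.23 for all genes. Rps7 (1.23 ± 0.17, edgeR adjusted p = 0.00164) and Rps27 (0.94 ± 0.21, edgeR adjusted p = 0.0128) were among them, and Rps2 was not (−0.24, edgeR adjusted p = 0.40). The summed T cell, NK cell and erythroid markers and the macrophage genes Adgre1, C1qa and C1qb were higher in spleen, with the exceptions given above. The summed neutrophil and cycling markers were lower. The part of all these markers in the tissue differences was not tested.

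In the related lists, other translation genes with TOP mRNAs had 1 gene higher in spleen, Eif4a2, an RNA helicase of translation initiation (137 to 180 CPM in BM and 294 to 425 CPM in spleen, 1.11 ± 0.16, edgeR adjusted p = 0.00185). In that list 1 gene was lower, Hnrnpa1 (493 to 899 CPM in BM, 321 to 406 CPM in spleen, −0.80 ± 0.21, edgeR adjusted p = 0.0299). Among assembly factors 1 was higher, Sbds, which frees 60S subunits for use (0.91 ± 0.21, edgeR adjusted p = 0.0181), and 2 were lower, one being Nhp2, a protein of the RNA-modifying H/ACA particles (−1.21 ± 0.32, edgeR adjusted p = 0.0325). Of 78 mitochondrial ribosomal proteins 0 were higher and 2 lower, Mrps22 (−1.56 ± 0.34, edgeR adjusted p = 0.0148) and Mrpl28 (−0.97 ± 0.22, edgeR adjusted p = 0.0165), and 63 of 78 values were negative. Of 15 genes that control TOP mRNAs 2 were lower. These were Eif4ebp1, an inhibitor of translation initiation that mTOR inactivates (77.9 to 207 CPM in BM, 47.0 to 64.7 CPM in spleen, −1.11 ± 0.31, edgeR adjusted p = 0.0413), and Mycn, which was at 0 counts in all 3 spleen libraries and at 0.0981 to 4.16 CPM in BM. The lowest BM value of Mycn lay under the limit of detection, and its fitted value depends on the prior count, since spleen held no counts. RNA polymerase I genes had 0 calls (edgeR), and 2 had an unadjusted p under 0.05. Medians were −0.02 for other TOP mRNAs, −0.20 for RNA polymerase I genes, −0.32 for both assembly factors and mitochondrial ribosomal proteins, and −0.46 for genes that control TOP mRNAs.

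In spleen, where WT had 1 library, no member differed between KO and WT past the threshold. In a fit of all 9 samples with 4 groups, in which the lone WT spleen library was assumed to vary like the other groups, 0 of 87 members were called (edgeR, lowest adjusted p = 0.151), against 6.7% of all genes called higher and 1.88% lower. Unadjusted, 1 member (Rpl3l) had p under 0.05, against 22.1% of all genes, and DESeq2 and limma-voom also called 0 members, with 1 each at an unadjusted p under 0.05. As differences of log2 CPM, the median of the members was 0.18, with 0.22 for KO 1 and 0.09 for KO 2 against the same WT library. Both KO libraries were above WT for 49 members, against 29.7% of all genes, and both below for 14, against 26.8%. The WT library decides all of these values, and its members ranked lowest of the 3 spleen libraries by median. The 2 KO libraries differed from each other in median by −0.10 (KO 2 minus KO 1). Measures of cell content also differed between these libraries. The T cell markers summed to 709 CPM in WT and to 1059 and 3278 CPM in KO, the NK cell markers to 753 CPM in WT and 806 and 1855 CPM in KO, and the erythroid markers to 5096 CPM in WT and 30506 and 9671 CPM in KO. Genes detected numbered 11698 in WT, and 13132 and 13169 in KO. The pre-cDC and cDC markers, at 2801 CPM in WT, lay between the KO values of 4373 and 2131 CPM. The part of these measures in the differences was not tested.

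The members with the largest positive differences were Rpl29, Rps19bp1, Rpl12, Rpsa and Rps20. Rpl29, a large subunit protein that also binds heparin, had 192 CPM in WT and 337 and 378 CPM in KO, a mean difference of 0.89 (fitted value 0.90 ± 0.43, edgeR adjusted p = 0.261). Rpl12, of the stalk base, had 178 CPM in WT and 293 and 345 CPM in KO (0.84), and Rpsa had 485 CPM in WT and 802 and 831 CPM in KO (0.75). The nearly silent Rpl3l had 3.91 CPM in WT and 0 in both KO libraries. The most negative of the other members were Rps28 (199 CPM in WT, 187 and 87.2 CPM in KO), Rpl38 (151 CPM in WT, 127 and 77.3 CPM in KO), Rpl37, Rpl39 and Rps29. In this group the difference lay mainly in KO 2, which was 0.96 to 1.19 below WT, while KO 1 was 0.04 to 0.26 below. Their transcripts have 390 to 835 bases, and Rpl38, Rps29 and Rps28 were among the 5 members with the widest range over the BM libraries (2.85, 2.51 and 2.46 on the log2 scale). With length and GC offsets the median difference of all members in spleen was 0.05.

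Whether the difference between KO and WT itself differed between tissues was tested as the interaction of genotype and tissue. No member was called (0 of 87, edgeR), against 5.64% of all genes called higher and 1.37% lower, and 4 (4.60%) had an unadjusted p under 0.05, against 19.8% of all genes. These were Rpl29 (1.27 ± 0.51, edgeR adjusted p = 0.211), Rpsa (1.15 ± 0.47, edgeR adjusted p = 0.22), Rpl12 (1.44 ± 0.60, edgeR adjusted p = 0.235) and Rpl3l, which had at most 1.05 CPM in BM (edgeR adjusted p = 0.188). The median interaction of the members was 0.45, that of all genes was 0.35, and 82 of 87 values were positive. Without WT BM 1 the median of the members was 0.16 with 57 of 87 positive, against 0.29 for all genes. Without KO BM 2 it was 0.29, against 0.36 for all genes. In every other fit with a library left out the members' median was above that of all genes. Rpl5 (1.08 ± 0.51) and Rps12 (1.20 ± 0.56) followed (edgeR adjusted p = 0.282 each), and the lowest values besides Rpl3l, those of Rpl27a (−0.30 ± 0.54), Rpl7l1 (−0.21 ± 0.33), Rpl37 (−0.09 ± 0.76) and Rpl22 (−0.09 ± 0.56), were within their standard errors. Of the related lists, RNA polymerase I genes had 2 calls with higher values, assembly factors and mitochondrial ribosomal proteins 1 each, and the other 2 lists 0, with medians from 0.29 to 0.62. The same assumption about the lone WT spleen library applied.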

How the data were processed

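RNA was measured in 9 samples, grouped by the genotype and tissue of their labels. The authors deposited expected counts per gene, not normalized, and log2-scale values after a variance stabilizing transformation, which were used in 1 alternative. The submitters' processing notes name Trimmomatic 0.36, STAR 2.5.2, RSEM 1.3.0, DESeq2 1.18.1, R 3.4.3 and GRCm38, without roles. Symbols, transcripts and coordinates came from GENCODE M21 (GRCm38), and promoter sequences from RefSeq (GRCm38.p6). Members and lists were chosen with earlier results of these data known.

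Expected counts were rounded, filtered by filterByExpr over the 4 groups and scaled by TMM. The main test was the quasi-likelihood test of edgeR 4.0.16 under R 4.3.3, with p-values adjusted over all genes by Benjamini-Hochberg and called below 0.05. The fit for BM genotypes held 6 samples, those for tissue and the interaction 9, as did that for spleen genotypes, added after the data were seen. The standard error was taken from the F statistic. Alternatives were DESeq2 1.42.0, voom of limma 3.58.1, the replicate number as a block, other scalings and filters, length and GC offsets, pseudogene counts added, a congenic score, and each library left out. CPM used TMM over all samples, and log2 CPM a prior count of 2. Short transcripts are under 500 bases and long ones at least 900, by the principal transcript.

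Nothing says that samples of a group came from separate experiments, so p-values measure the spread between pools, each of 2 mice. No 2 libraries agreed within sampling noise. Named members are the 5 highest and lowest levels per kb, the 5 lowest unadjusted p in each direction of a comparison, the 5 highest and lowest spleen differences, paralogs, and members of known role. Of each related list the 2 lowest p per comparison were the choice. Members named for their lengths, sequences, overlap or residuals were chosen after their values were seen. Some genes that these rules name are not reported here. The scripts were tested on simulated counts.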

Additional observations from a re-analysis of the deposited data

Results flagged for a closer look

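Rpl30 was the 1 member for which KO lay below WT in every BM library and above WT in both spleen libraries. On the log2 CPM scale the KO spleen libraries were 0.36 and 0.13 above WT, a mean difference of 0.24, while the log2 fold change in BM was −0.53. The interaction did not pass the test (0.77 ± 0.48, edgeR adjusted p = 0.427).

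Of the related genes named by the lowest p of their list, 4 were called for the interaction of genotype and tissue. They were thus picked by the same p. They were 2 of 19 RNA polymerase I genes, 1 of 48 assembly factors and 1 of 78 mitochondrial ribosomal proteins. Of all genes, 5.64% were called higher and 1.37% lower for the interaction. Riok1, a kinase of 40S maturation, had 35.5 to 54.8 CPM in BM, 2.43 CPM in WT spleen, and 49.2 and 76.6 CPM in KO spleen (log2 interaction 4.61, edgeR adjusted p = 0.00313). Mrpl47, of the mitochondrial ribosome, had 24.6 to 54.2 CPM in BM, 0.237 CPM in WT spleen, and 34.2 and 40.3 CPM in KO spleen (7.68, edgeR adjusted p = 0.00163). Polr1b, a subunit of RNA polymerase I, had 22.8 to 78.9 CPM in BM, 0 in WT spleen, and 25.8 and 14.4 CPM in KO spleen (12.14, edgeR adjusted p = 0.00721). Taf1c, of its initiation factor, had 12.7 to 31.1 CPM in BM, 0 in WT spleen, and 2.28 and 20.4 CPM in KO spleen (11.12, edgeR adjusted p = 0.0244). The last 2 fitted values depend on the prior count, since WT spleen held no counts, and all 4 rest on that single library.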

How the results depend on the processing

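No ribosomal protein gene was called in BM, for the interaction or between genotypes in spleen under any alternative run, and the BM median was between −0.51 and 0.04 over the libraries left out, the positive value being that without WT BM 1. The calls between tissues moved. Instead of 2 higher and 1 lower, there were 0 lower with RLE factors, 4 higher with DESeq2, and 26 higher and 2 lower with length and GC offsets. With libraries left out there were 0 to 4 higher and 0 to 1 lower. Among members of at least 900 bases 1 was higher, and among members with whole counts 0 were higher and 0 lower, with a median of −0.25. Both subsets were chosen after seeing the data, as were the subset without paralogs and a filter by tissue, which left 2 higher and 1 lower, and the VST values, with a tissue median of 0.18. With RLE factors and with library totals the tissue medians of all genes were −0.13 and −0.26 and those of members 0.21 and 0.09.

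Rpl22 and Rpl37, near 0 for the interaction, changed sign when libraries were left out (−0.48 to 0.10 and −0.67 to 0.26). Alternatives were run for the members only. Whether the same number marks the same mice is not stated. For this, deviations were taken from the mean of the BM libraries of the same genotype. Between WT and KO BM libraries of the same number they correlated at 0.09, 0.07 and −0.06 over all genes. Over members the values were 0.55, 0.73 and 0.48. In the order of the numbers, the neutrophil marker S100a8 had 2995, 227 and 831 counts in WT BM and 3297, 293 and 818 in KO BM. The main tests did not take the numbers as pairs, and these values do not decide whether they are. With the replicate number as a block, 1 member was higher and 0 lower between tissues (Rps27, 1.34, adjusted p = 0.0397; Rps7, 1.03, adjusted p = 0.0888; Rps2, −0.69, adjusted p = 0.143), and no other call changed.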
